A study of Mus musculus with 9 samples.

Results

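A panel of 9 genes of bipolar cell signalling was followed in sorted cells of the young mouse retina: Prkca, Gng13, Pcp2, Car8, Grm6, Trpm1, Vsx1, Bhlhe22 and Cabp5. The panel was chosen by name, with earlier results of these data known. A gene was measured by every Affymetrix probe set that the array's annotation tied to its symbol alone, and the probe set with the highest mean over the 9 arrays stood for the gene. By this rule 7 of the 9 genes were measured, by 19 probe sets, among 18193 genes in all. Grm6 and Bhlhe22 were not analysed here.

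Gene expression was measured on 9 arrays, 3 for each of 3 groups of cells separated by green fluorescence. Retinae of the rhoEGFP line (rhoGFP) were taken at postnatal day 4 and split into fluorescent and non-fluorescent cells, here rhoGFP-positive and rhoGFP-negative, which are called the rhoGFP fractions. Retinae of the pNestin-GFP line (nestinGFP) were taken at postnatal day 0, and their fluorescent cells were kept as the nestinGFP-positive group. All 3 groups shared the C57BL/6J-129/Ola background, and each replicate was a pool of retinae from 6 to 8 mice. The rhoEGFP line reports the rod pigment gene and the pNestin-GFP line reports nestin, a filament of neural progenitors. The labels give no further description of either transgene. Line, age and cell population differ together between the nestinGFP-positive group and the others, so that their parts cannot be told apart.

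Bipolar cells are the interneurons that carry signals from photoreceptors to the inner retina, and they are among the last retinal neurons to be born. In darkness photoreceptors release glutamate, which acts on the receptor mGluR6, the product of Grm6, at the dendrites of ON bipolar cells. A G protein of the Go class then holds the cation channel TRPM1 shut, and light opens the channel by ending the glutamate signal. Prkca encodes protein kinase C alpha, the standard antibody marker of mature rod bipolar cells, and Gng13 a G protein gamma subunit of the ON bipolar cascade. Pcp2 encodes a Purkinje cell protein that modulates Go and Gi proteins and is also made by ON bipolar cells. Car8 encodes a carbonic anhydrase relative without enzyme activity that binds the inositol trisphosphate receptor. Cabp5 encodes a calmodulin-like calcium-binding protein of bipolar cells, and Vsx1 a homeodomain factor of cone bipolar cells.

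The sorted fractions carried the markers of their labels in part. All 6 measured rod markers, among them the rod channel gene Cnga1 and the rod transducin gene Gnat1, were higher in the rhoGFP-positive than in the rhoGFP-negative cells, and the median of these markers ran from 11.92 to 12.42 log2 units on the rhoGFP-positive arrays against 7.70 to 9.69 on the rhoGFP-negative arrays and 6.52 to 8.20 on the nestinGFP-positive arrays. Of 7 progenitor markers 6 were lower in the rhoGFP-positive cells in each of the 2 comparisons of that group. Nes itself, which encodes nestin, was at 0.00 log2 units for rhoGFP-negative minus nestinGFP-positive cells (limma adjusted p = 0.998), and was not called in any comparison. For the actin controls, the 3' probe set exceeded the 5' one by 0.91 ± 0.064 log2 units (SD, n = 3) on rhoGFP-positive arrays, by 0.65 ± 0.021 on rhoGFP-negative arrays and by 0.67 ± 0.30 on nestinGFP-positive arrays. The control probe sets for 18S ribosomal RNA stood at 12.13 to 13.62 on the replicate 1 array of each group and at 9.65 to 10.44 on the 6 other arrays. With 3 arrays a group, the standard error of a difference had a median of 0.141 log2 units over all genes.

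In the rhoGFP-positive cells Prkca and Gng13 were higher than in both other groups, by 2.72 to 2.86 times and 2.30 to 2.96 times. Pcp2 was highest in the rhoGFP-negative cells and Car8 highest in the nestinGFP-positive cells. The values of Cabp5 leaned to the rhoGFP-negative cells by less than 2-fold, and those of Trpm1 and Vsx1 differed by less than 1.5-fold in every comparison. A gene was called where limma's adjusted p lay below 0.05 and the groups differed by 2-fold or more. Of the 7 genes 2 were called between the rhoGFP fractions, where limma called 10.9% of all genes. Both were higher in the rhoGFP-positive cells, as were 3.61% of all genes, while 7.32% of all genes and none of the 7 were called lower; Pcp2 and Cabp5 were lower there at an adjusted p below 0.05 with less than 2-fold, and 24.3% of all genes had such a p at any size. Between the GFP-positive groups 3 of the 7 were called, against 15.6% of all genes: 2 higher in the rhoGFP-positive cells (5.06% of all genes) and 1 lower (10.5%). Trpm1 was a 4th with an adjusted p below 0.05 at any size, as were 35.8% of all genes. For rhoGFP-negative against nestinGFP-positive cells 2 were called, against 0.989% of all genes: Pcp2 higher (0.385%) and Car8 lower (0.605%). Cabp5 was a 3rd there with an adjusted p below 0.05, found for 2.03% of all genes. The 0.989% stood for 180 genes, and 453 genes were called with the replicate number as a block. Of the calls over all genes 33.0%, 32.5% and 38.9% were higher in the 3 comparisons, and 50.5%, 55.7% and 51.0% after scaling to a common median, which changed no call of the 7 genes. The median difference of the 7 genes in these 3 comparisons was -0.28, 0.32 and 0.36 log2 units, beside 0.01, 0.06 and 0.03 over all genes. In RNA from pools of cells, fewer cells of a type and less RNA per cell cannot be told apart.

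**Figure D1:**
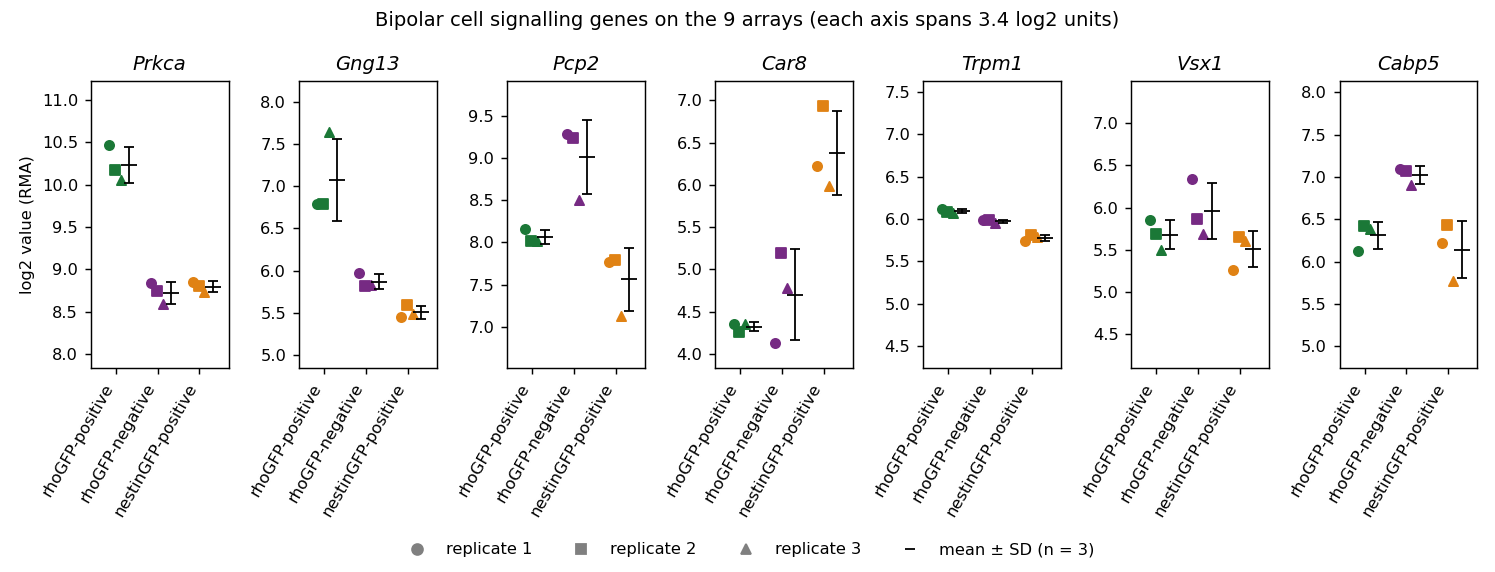
Values of the 7 measured genes on each array, in log2 units, with a symbol for each replicate and the mean ± SD of 3 arrays beside them. Prkca and Gng13 are highest on the 3 rhoGFP-positive arrays, Pcp2 and Cabp5 on the 3 rhoGFP-negative arrays and Car8 on the 3 nestinGFP-positive arrays.

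Promoters are shown for the 2 genes that rose in the rhoGFP-positive cells, and for Pcp2 and Cabp5. The 3 rhoGFP-negative arrays of Pcp2 and of Cabp5 lay above all others, so each pair shared its leading group. Vsx1 also had its highest mean in the rhoGFP-negative cells (5.96), but its arrays overlapped those of the rhoGFP-positive cells. The sequences are the 250 bases before the most upstream start in RefSeq's promoter table, 5′ to 3′ on the gene's strand, from RefSeq on GRCm38.p6, and capitals mark TAATCC, the motif bound by the photoreceptor and bipolar factors CRX and OTX2, or TAATTA, a homeodomain core, on either strand. The windows were chr11:108343889-108344138 on the minus strand for Prkca, chr17:25716922-25717171 on the plus strand for Gng13, chr8:3625548-3625797 on the minus strand for Pcp2 and chr7:13397905-13398154 on the plus strand for Cabp5.
Prkca: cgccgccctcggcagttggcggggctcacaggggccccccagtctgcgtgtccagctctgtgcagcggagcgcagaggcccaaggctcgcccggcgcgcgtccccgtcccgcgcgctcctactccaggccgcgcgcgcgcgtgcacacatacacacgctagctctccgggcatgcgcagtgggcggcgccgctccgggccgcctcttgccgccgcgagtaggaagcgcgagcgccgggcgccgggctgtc
Gng13: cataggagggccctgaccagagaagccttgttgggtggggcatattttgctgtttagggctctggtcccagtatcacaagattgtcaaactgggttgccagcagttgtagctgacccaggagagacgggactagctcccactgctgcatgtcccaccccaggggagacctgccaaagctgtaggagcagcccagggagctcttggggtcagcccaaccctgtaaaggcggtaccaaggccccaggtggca
Pcp2: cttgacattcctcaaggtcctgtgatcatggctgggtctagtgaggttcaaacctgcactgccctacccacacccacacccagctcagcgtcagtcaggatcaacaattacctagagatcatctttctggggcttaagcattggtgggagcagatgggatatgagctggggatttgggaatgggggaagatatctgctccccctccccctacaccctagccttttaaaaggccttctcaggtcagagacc
Cabp5: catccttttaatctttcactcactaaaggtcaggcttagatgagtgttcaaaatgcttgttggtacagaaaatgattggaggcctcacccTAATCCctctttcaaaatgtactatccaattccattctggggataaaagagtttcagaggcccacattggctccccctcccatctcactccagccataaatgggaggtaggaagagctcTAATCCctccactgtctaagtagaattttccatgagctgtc

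The Cabp5 window held TAATCC at 2 places, which begin 160 and 41 bases before the listed start. That start lies inside the annotated gene, which begins at 13385960 on the same strand. The windows of Prkca, Gng13 and Pcp2 held neither motif. Trpm1 held TAATCC once, on the opposite strand, 34 bases before its most upstream start. Among the 12 windows that the RefSeq table lists for 7 genes of the panel, TAATTA occurred once, before a start of Pcp2 within the gene. The share of all 32851 such windows was 6.25% for TAATCC and 4.84% for TAATTA. The E-box CANNTG, the motif of basic helix-loop-helix factors such as the Bhlhe22 protein, lay in all of the printed windows but that of Cabp5, and in 66.2% of all windows. Prkca had the highest GC content of the printed windows, at 76.8%, against 44.0% in Cabp5. A match to these letters is a description and not a binding site, and Car8 and Bhlhe22 are named without a window.

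Gng13 (chromosome 17, 25717172 to 25719102 in GRCm38.p6), which encodes the gamma subunit of the cascade, had log2 values of 6.79, 6.79 and 7.64 on the rhoGFP-positive arrays. The rhoGFP-negative arrays read 5.97, 5.81 and 5.82, and the nestinGFP-positive arrays 5.45, 5.59 and 5.48. The groups did not overlap in any comparison, and replicate 3 of the rhoGFP-positive group stood above its 2 partners. Groups without overlap were found for 38.2% of all genes between the rhoGFP fractions, for 47.8% between the GFP-positive groups and for 20.6% in the remaining comparison. The difference was 1.20 ± 0.205 between the rhoGFP fractions (SE, limma adjusted p = 0.00196) and 1.57 ± 0.205 against the nestinGFP-positive cells (limma adjusted p = 0.000243). Without replicate 3 of the rhoGFP-positive group the first difference was 0.92 and no longer reached 2-fold. The other probe set of Gng13, 1447282_at, showed no such pattern, with 0.03 between the rhoGFP fractions and 0.09 against the nestinGFP-positive cells, and 4 of its 9 arrays held the same value. By mean signal Gng13 lay at percentile 38.6 of all genes, among the lowest 40% that were treated as dim.

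Trpm1 (chromosome 7, 64153835 to 64269772), the gene of the channel itself, varied little. It read 6.12, 6.08 and 6.07 on the rhoGFP-positive arrays, 5.99, 5.99 and 5.95 on the rhoGFP-negative arrays and 5.74, 5.81 and 5.78 on the nestinGFP-positive arrays. The groups did not overlap, yet the widest difference, between the GFP-positive groups, was 0.32 ± 0.086 (SE, limma adjusted p = 0.0168). Its 95% interval of 0.12 to 0.51 lies below 2-fold. The 3 other probe sets of Trpm1 gave 0.01 to 0.11 in that comparison. Of the 19 probe sets 8 held an identical value on at least 2 arrays, among them all 4 of Trpm1, beside 32.2% of all probe sets with a symbol.

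Pcp2 (chromosome 8, 3623369 to 3625547), the modulator of Go, stood at 9.29, 9.23 and 8.50 on the rhoGFP-negative arrays. It read 8.16, 8.02 and 8.02 on the rhoGFP-positive arrays and 7.77, 7.79 and 7.13 on the nestinGFP-positive arrays. The 3 groups did not overlap, in the order rhoGFP-negative, rhoGFP-positive, nestinGFP-positive. Pcp2 was 2.72-fold higher in the rhoGFP-negative than in the nestinGFP-positive cells (1.45 ± 0.232 log2 units, SE, limma adjusted p = 0.0217). It was no longer called without rhoGFP-negative replicate 1 (adjusted p = 0.0797) or 2 (0.0815), without nestinGFP-positive replicate 2 (0.0693) or 3 (0.0564), or in a fit of the 6 arrays compared (0.0825).

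Between the rhoGFP fractions Pcp2 was at -0.94 ± 0.232, short of the 2-fold minimum (limma adjusted p = 0.0144), and it passed at -1.19 without replicate 3 of the rhoGFP-negative group. Against the nestinGFP-positive cells the rhoGFP-positive cells stood at 0.50, with a 95% interval of -0.02 to 1.02. The second probe set, 1419084_a_at, gave 1.03 for rhoGFP-negative minus nestinGFP-positive cells (adjusted p = 0.103), and the dimmest, 1424944_at, gave 0.13. With clone, Gm, Rik and LOC names passed over, the genes closest to Pcp2 over the 9 arrays were Proser2 and Nrn1l. Their root mean square differences were 0.186 and 0.199 log2 units.

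Prkca (chromosome 11, 107933387 to 108343888), the kinase gene, rose in the rhoGFP-positive cells in both of their comparisons. Its log2 values were 10.47, 10.18 and 10.06 on the rhoGFP-positive arrays, 8.84, 8.74 and 8.58 on the rhoGFP-negative arrays and 8.85, 8.80 and 8.73 on the nestinGFP-positive arrays. All 3 rhoGFP-positive arrays lay above all others, and the 2 other groups overlapped. The difference between the rhoGFP fractions was 1.51 ± 0.127 log2 units (SE, limma adjusted p = 2.65e-05), and against the nestinGFP-positive cells it was 1.44 ± 0.127 (limma adjusted p = 2.07e-05). Within replicate numbers 1, 2 and 3 the rhoGFP-positive fraction exceeded the rhoGFP-negative fraction by 1.63, 1.44 and 1.47. For rhoGFP-negative minus nestinGFP-positive cells the difference was -0.07, with a 95% interval of -0.36 to 0.21.

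The 3 probe sets of Prkca went the same way between the rhoGFP fractions but not by the same amount. The probe set that stood for the gene, 1437393_at, gave 1.51, while 1450945_at gave 0.75 (adjusted p = 0.0202 over all probe sets with a symbol) and 1427562_a_at gave 0.30 (adjusted p = 0.365). On 1450945_at the rhoGFP-positive arrays read 7.77, 7.58 and 7.64 against 6.63, 6.84 and 7.26 on the rhoGFP-negative arrays, with no overlap. With the mean of the probe sets Prkca stood at 0.86 between the rhoGFP fractions and at 0.78 against the nestinGFP-positive cells, under the 2-fold minimum in both (limma adjusted p = 0.000524 and 0.000561).

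The rises of Prkca and Gng13 stood beside the higher rod markers and a gap between the actin 3' and 5' probe sets of 0.85 to 0.97 on the rhoGFP-positive arrays, against 0.64 to 0.68 on the rhoGFP-negative and 0.40 to 0.99 on the nestinGFP-positive arrays. The part of either in the result was not tested. Clone, Gm, Rik and LOC names were passed over, and each gene was centred on its own mean. The genes whose values then followed Prkca most closely over the 9 arrays were the phosphatase gene Dusp22 and the fibroblast growth factor receptor Fgfr3. Their root mean square differences were 0.097 and 0.101 log2 units. The closest to Gng13 were St3gal3, which encodes a sialyltransferase (0.150), and Cd37, a tetraspanin gene (0.189). Prkca and Gng13 themselves departed from their own means by 0.71 each on the same measure.

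Cabp5 (chromosome 7, 13385960 to 13408887) read 7.10, 7.07 and 6.91 on the rhoGFP-negative arrays. It read 6.13, 6.42 and 6.38 on the rhoGFP-positive arrays and 6.22, 6.44 and 5.77 on the nestinGFP-positive arrays. The rhoGFP-negative arrays lay above all others, and the 2 GFP-positive groups overlapped. The difference was -0.72 ± 0.167 between the rhoGFP fractions (SE, limma adjusted p = 0.0109) and 0.88 ± 0.167 for rhoGFP-negative minus nestinGFP-positive cells (limma adjusted p = 0.0326), and neither reached 2-fold. The second adjusted p was above 0.05 without rhoGFP-positive replicate 2 (0.0623) or 3 (0.0598), without rhoGFP-negative replicate 1 (0.121) or 2 (0.108), without nestinGFP-positive replicate 2 (0.0637) or 3 (0.0672), and in a fit of the 6 arrays compared (0.0923). The other probe set went the same way by less, at -0.49 and 0.43. Pcp2 and Cabp5 shared the order of levels in which the rhoGFP-negative cells led. The Müller glia markers had a median of 9.76 to 10.62 on the rhoGFP-negative arrays, 7.17 to 8.71 on the rhoGFP-positive and 8.69 to 9.82 on the nestinGFP-positive arrays. For the progenitor markers the ranges in that order were 10.07 to 10.69, 8.08 to 8.49 and 10.80 to 11.31, and for the amacrine markers 8.89 to 9.91, 6.61 to 7.91 and 9.53 to 10.02. The part of these markers in the values of Pcp2 and Cabp5 was not tested.

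Car8 (chromosome 4, 8141493 to 8239041) was highest in the nestinGFP-positive group. The nestinGFP-positive arrays read 6.22, 6.93 and 5.98, the rhoGFP-negative arrays 4.13, 5.19 and 4.78 and the rhoGFP-positive arrays 4.35, 4.26 and 4.36. The nestinGFP-positive arrays lay above all 6 others, while the 2 rhoGFP fractions overlapped. Car8 was 4.15-fold lower in the rhoGFP-positive than in the nestinGFP-positive cells (-2.05 ± 0.285 log2 units, SE, limma adjusted p = 0.000348), and it was 3.19-fold lower in the rhoGFP-negative cells (-1.67 ± 0.285, limma adjusted p = 0.0248). The second difference was no longer called without rhoGFP-positive replicate 2 (adjusted p = 0.0535), which enters it through the shared spread, without rhoGFP-negative replicate 1 (0.0694), without nestinGFP-positive replicate 2 (0.0885) or in a fit of the 6 arrays compared (0.0871). Between the rhoGFP fractions the difference was -0.38, with a 95% interval of -1.02 to 0.26.

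The 2 other probe sets of Car8 also read lower in the rhoGFP-positive than in the nestinGFP-positive cells, at -0.71 (adjusted p = 0.00951) and -0.68 (adjusted p = 0.0442), under the 2-fold minimum. By mean signal Car8 lay at percentile 25.1, so its folds come from dim values. Itpr1, whose receptor CAR8 is known to bind, was not analysed here. Its relatives Itpr2 and Itpr3 stood at 0.12 and -0.15 between the GFP-positive groups and were not called in any comparison by limma, nor at an unadjusted p below 0.05. By the same search Dlgap1, which encodes a postsynaptic scaffold protein, was closest to Car8 (root mean square difference 0.247). Npr3, a natriuretic peptide receptor gene, was next (0.263).

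Vsx1 (chromosome 2, 150680702 to 150689137) read 6.33, 5.87 and 5.69 on the rhoGFP-negative arrays, 5.85, 5.69 and 5.50 on the rhoGFP-positive arrays and 5.26, 5.65 and 5.61 on the nestinGFP-positive arrays. The rhoGFP-positive arrays overlapped with both other groups. The widest difference was 0.45 for rhoGFP-negative minus nestinGFP-positive cells (limma adjusted p = 0.225), with a 95% interval of 0.05 to 0.86 that takes no account of the number of genes. Within replicate numbers 1, 2 and 3 it was 1.07, 0.22 and 0.08. Trpm1 and Vsx1 lay at percentiles 36.3 and 33.3 by mean signal, and no detection calls were used, so that expression at these dim values was not assessed.

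**Figure D2:**
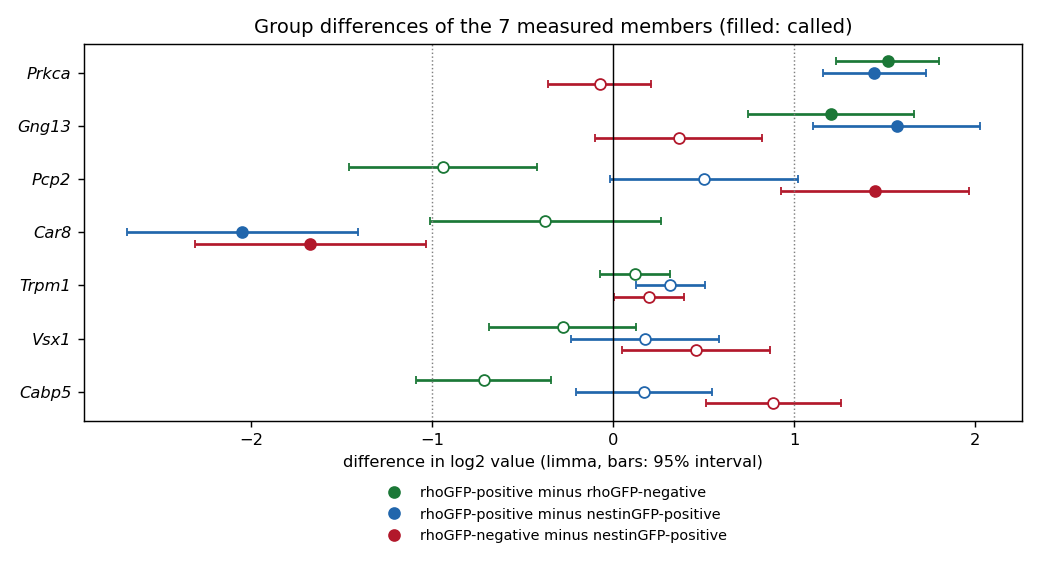
Differences of the 7 genes in the 3 comparisons, in log2 units with 95% intervals from limma, and dotted lines at 2-fold. Filled points passed both the adjusted p and the 2-fold minimum: Prkca and Gng13 to the right, Car8 to the left, and Pcp2 to the right for rhoGFP-negative minus nestinGFP-positive.

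**Figure D3:**
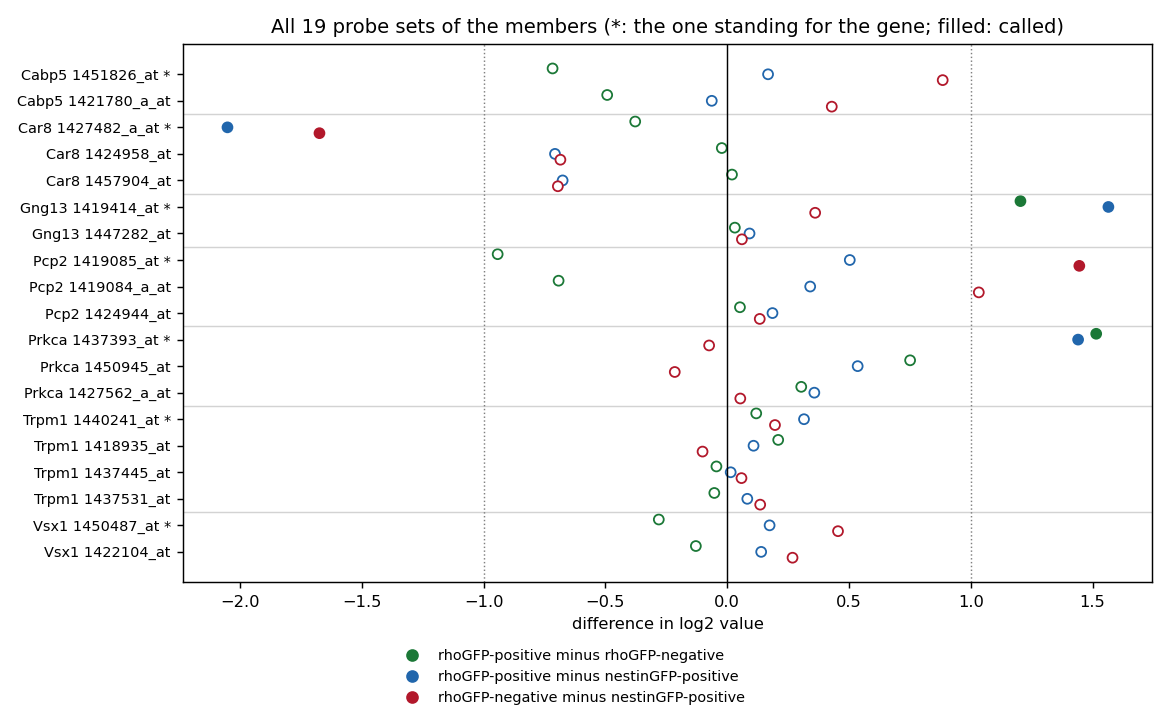
Differences of all 19 probe sets of the 7 genes in the 3 comparisons, in log2 units. The brightest probe set stands for each gene, and the dimmer probe sets of Prkca, Car8, Pcp2 and Cabp5 mostly went the same way by less, while 1447282_at of Gng13 lay near 0.

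Some other genes of the mGluR6 cascade and its synapse were higher with Prkca and Gng13 between the rhoGFP fractions, and the rest were not called. In that comparison 6 genes of the list lay above 0 and 5 below. Of all genes limma called 3.61% higher and 7.32% lower there. Of 11 measured genes 5 rose and 0 fell by limma, with 1 lower at an unadjusted p below 0.05, and the median was 0.62 log2 units against 0.01 over all genes. The 5 were Elfn1 (3.30 ± 0.138, SE), a rod synaptic adhesion protein that contacts mGluR6, Lrit1 (2.84 ± 0.376), a leucine-rich repeat protein of photoreceptor synapses, Rgs9bp (2.51 ± 0.242), the membrane anchor of regulators of G protein signalling, Gnb5 (1.62 ± 0.097), the beta subunit that partners them, and Egflam (1.05 ± 0.201), the matrix protein pikachurin of the photoreceptor synapse. All 5 are known from photoreceptors or their synapses, and Rgs9bp and Gnb5 act in the bipolar cascade as well. Without replicate 2 of the rhoGFP-positive group or replicate 3 of the rhoGFP-negative group 4 rose.

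The other 6 genes of the list were not called between the rhoGFP fractions. Nyx, which encodes nyctalopin, stood at -0.09, Gpr179, the orphan receptor that recruits the regulators, at -0.20, Rgs11 at -0.37 and Gnao1, the Go alpha subunit, at -0.08; Nyx and Gpr179 were dim, at percentiles 27.1 and 27.7 by mean signal. Rgs7, the other regulator of the ON bipolar cascade, was at -0.69 there (limma adjusted p = 0.0286, under 2-fold) and fell by 1.38 ± 0.197 against the nestinGFP-positive cells (limma adjusted p = 0.00042). Gnb3, the beta subunit shared by cones and ON bipolar cells, was at 0.62 between the rhoGFP fractions (limma adjusted p = 0.129) and rose by 1.71 ± 0.265 against the nestinGFP-positive cells. In that comparison 6 of the 11 rose and 1 fell, beside 5.06% and 10.5% of all genes. Egflam alone of the 11 rose in rhoGFP-negative against nestinGFP-positive cells (1.36, limma adjusted p = 0.0184), and with the replicate number as a block 3 rose. No gene of the list was called there without rhoGFP-negative replicate 1 or 2 or nestinGFP-positive replicate 2, and 2 were called without rhoGFP-positive replicate 1 or nestinGFP-positive replicate 1.

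Some transcription factors of bipolar cells were lower in the rhoGFP-positive cells. Between the rhoGFP fractions limma called 7.32% of all genes lower and 3.61% higher. Of 15 measured factors 6 fell and 0 rose by limma between the rhoGFP fractions, with 1 higher at an unadjusted p below 0.05, and the median was -0.64. They were the LIM-homeobox factor Lhx4 (-2.37 ± 0.177), the Iroquois factors Irx5 (-2.36 ± 0.285) and Irx6 (-1.09), the nuclear factors Nfia (-2.24) and Nfib (-2.13) and the proneural factor Neurod4 (-1.28). The last 3 are also known from progenitors or glia. In the same comparison 6 of 7 progenitor, 5 of 6 amacrine and 3 of 5 Müller glia markers were lower, and their part in the result was not tested. The other 9 factors were not called, among them Otx2 (-0.25), a factor of photoreceptors and bipolar cells, and Prdm1 (0.16), a repressor of bipolar fate. After scaling to a common median 4 fell. Against the nestinGFP-positive cells, where 10.5% of all genes fell and 5.06% rose, 4 of the 15 fell, led by Irx5 (-2.64). Neurod1, a factor of photoreceptors as well, rose by 1.13. There 2 rose and 6 fell without rhoGFP-positive replicate 1, 2 rose and 4 fell without nestinGFP-positive replicate 1, and 0 rose and 3 fell without nestinGFP-positive replicate 3. Lhx4 alone was called in rhoGFP-negative against nestinGFP-positive cells, higher by 1.68 (limma adjusted p = 0.00541), and 4 factors were called there without nestinGFP-positive replicate 1. Bhlhe23, Sebox and Prdm8 were not called in any comparison.

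Of 12 genes of cone and OFF bipolar cells 4 fell between the rhoGFP fractions and 0 rose by limma, beside 7.32% and 3.61% of all genes. At an unadjusted p below 0.05, 1 was higher: Cabp2, by 0.61 (limma adjusted p = 0.0049, under 2-fold). The 4 were Nnat (-2.22 ± 0.571), the neurokinin receptor Tacr3 (-1.83), the zinc-finger factor Fezf2 (-1.83) and the calcium-binding protein Cabp1 (-1.39). The median of the list was -0.18, and 0.06 after scaling to a common median. Of the 12 genes 7 were dim, and the median of the 5 others was -1.83, with the same count of 4 lower. That median cannot show whether the list was lower, because the filter used the mean over all arrays, which a high group raises. Fezf2 averaged 5.64 on the rhoGFP-positive, 7.46 on the rhoGFP-negative and 8.38 on the nestinGFP-positive arrays. For Tacr3 these means were 6.00, 7.83 and 6.95. Against the nestinGFP-positive cells Fezf2 (-2.75) and Nnat (-2.54) fell. The kainate receptor subunit Grik1 (-0.35), the auxiliary subunit Neto1 (-0.02), secretagogin, encoded by Scgn (-0.24), and the vesicle protein Syt2 (0.08) were not called between the rhoGFP fractions. For rhoGFP-negative against nestinGFP-positive cells limma called 0 of the 12, and 4 had an unadjusted p below 0.05.

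Relatives of Prkca, Gng13 and Cabp5 did not share their patterns as families. Of all genes limma called 3.61% higher and 7.32% lower between the rhoGFP fractions. Against the nestinGFP-positive cells the shares were 5.06% and 10.5%. Of 7 other protein kinase C genes only Prkcz, an atypical isoform, rose between the rhoGFP fractions (1.27 ± 0.219), while Prkcb (-1.73 ± 0.246) and Prkch (-1.33) fell, and against the nestinGFP-positive cells 4 fell. Prkcz was not called against the nestinGFP-positive cells (0.37). With the mean of probe sets no kinase of the list rose and 1 fell between the rhoGFP fractions. Among 10 other G protein gamma genes Gngt1, the rod transducin subunit, rose by 4.33 ± 0.481 and Gng2 (-1.94 ± 0.246) and Gng3 (-1.41) fell between the rhoGFP fractions. Without replicate 2 of either rhoGFP fraction 1 gamma gene fell. Among 4 relatives of Cabp5 the photoreceptor gene Cabp4 rose by 2.68 ± 0.162 and Cabp1 fell, opposite ways within the family. Cabp4 was dim, at percentile 19.4 by mean signal, and without dim genes Cabp1 was the only relative left. Cabp2 was at 0.61 between the rhoGFP fractions (limma adjusted p = 0.0049), under 2-fold.

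**Figure D4:**
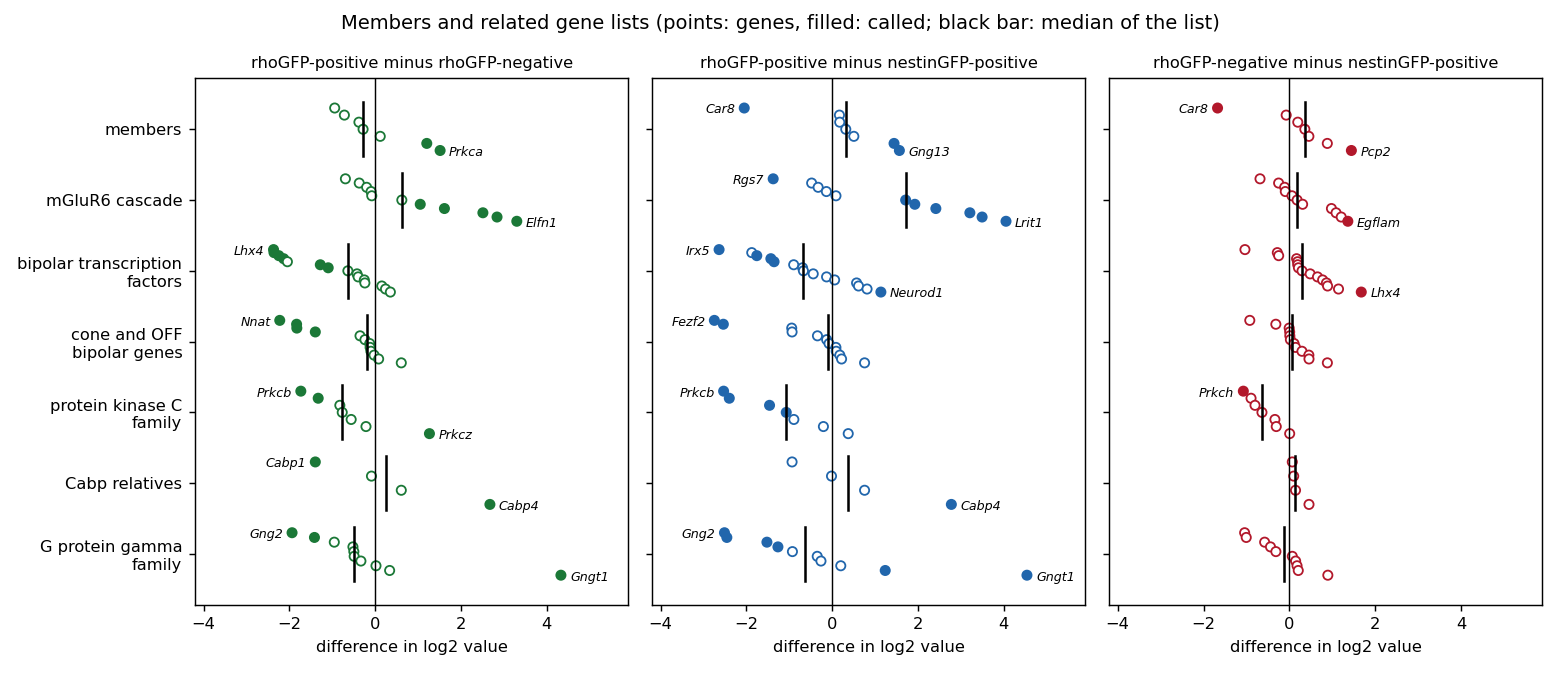
Differences in log2 units for the panel and 6 related lists in the 3 comparisons, with a point for each gene, filled where called, and a bar at the median of each list. By its median the cascade list lies right of 0 and the transcription factor list left in both comparisons of the rhoGFP-positive cells. Both lists have genes on either side of 0, and few genes are filled in the third comparison.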

How the data were processed

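RNA of 9 sorted pools was amplified from 200 ng of total RNA and labelled with biotin, per the labels' protocols. The authors deposited log2 values made by RMA, per the submitters' processing notes; no version of it is named in the sources used here. This method corrects background, quantile-normalizes and summarises probe sets, which compresses dim signals. Of 45101 probe sets, 34945 had a single gene symbol in GEO's platform annotation, 932 had several and 9160, controls aside, were not listed with a gene; symbols were updated by Entrez ID.

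Differences were fitted with limma 3.58.1 in R 4.3.3 (lmFit, eBayes, two-sided) over all 9 arrays with 3 group means, adjusted by Benjamini and Hochberg over 18193 genes. Single probe sets were adjusted over the 34945. The fit was tried on simulated data with independent arrays and changes planted in the rhoGFP-positive group. Only the comparison of the rhoGFP fractions was scored there, so the trial does not cover the other comparisons or arrays that deviate together. The replicates are pools labelled as biological replicates.

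The members, the gene lists and the motifs were chosen with earlier results of these data known. All members were named, with every gene of the cascade list and the largest call each way in the other lists. The 2 nearest genes of each called member were named as well, passing over clone, Gm, Rik and LOC names. Further list genes were named after their values were seen. Same-numbered arrays deviated together from their group means in the rhoGFP fractions (r of 0.451 to 0.624 over genes). They did so for rhoGFP-negative with nestinGFP-positive arrays as well (0.155 to 0.543). The r values were 0.522, -0.00806 and 0.252 between the GFP-positive groups. The main fit did not pair arrays by number, so its standard errors, intervals and p-values took no account of this. Pairing by number, inferred from the data alone, entered only the replicate block and the differences within replicate numbers. The nestinGFP-positive pools came from mice of another line and age, so their numbers cannot mean a pool shared with the rhoGFP fractions. Alternatives were other normalizations, probe set rules, a filter on dim genes, fewer arrays, the replicate block, other eBayes settings and thresholds. Figures used matplotlib 3.10.9.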

Additional observations from a re-analysis of the deposited data

How the results depend on the processing

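Of the 7 genes, the 2 called between the rhoGFP fractions became 0 with the mean of probe sets, 1 without dim genes (which drops Gng13) and 4 with no minimum difference (Pcp2 and Cabp5 added), and 1 to 3 when 1 array was left out. The 3 called between the GFP-positive groups became 1 on averaging probe sets and 1 without dim genes, and stayed 3 whichever array was left out. The 2 called in rhoGFP-negative against nestinGFP-positive cells became 1 with the mean of probe sets, 1 without dim genes, 0 in fits of the 6 arrays compared, 0 at an adjusted p below 0.01 and 0 without replicate 1 of every group, an alternative chosen after seeing the data, and 0 to 2 when 1 array was left out. The 3 counts stayed at 2, 3 and 2 under each other normalization, with trend and robust settings, without _x_at and _s_at probe sets and with the replicate block, which changed no call of the 7 genes. Dropping probe sets, genes or arrays changes what is averaged or tested; other causes of these changes were not tested.

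Signs that turned were those of uncalled differences. With other probe sets Cabp5 was at -0.063 between the GFP-positive groups, Car8 at 0.020, Pcp2 at 0.052 and Trpm1 at -0.044 and -0.053 between the rhoGFP fractions, and Prkca at 0.054 and Trpm1 at -0.10 for rhoGFP-negative minus nestinGFP-positive cells. Prkca was at 0.040 there after scaling to a common median. Between the GFP-positive groups Cabp5 ran from -0.017 to 0.32 with 1 array left out, and Vsx1 was at -0.035 without replicate 1 of every group.

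Scaling to a common median moved the median of all genes from 0.01 to 0.25, from 0.06 to 0.42 and from 0.03 to 0.15 in the 3 comparisons, and the share of calls that were higher from 33.0% to 50.5%, from 32.5% to 55.7% and from 38.9% to 51.0%. Over all genes, calls in rhoGFP-negative against nestinGFP-positive cells ran from 19 to 559 with 1 array left out and were 28 in a fit of the 6 arrays, 453 with the replicate block, 370 with no minimum difference and 23 at an adjusted p below 0.01; with no minimum difference they were 4417 between the rhoGFP fractions and 6508 between the GFP-positive groups. The low signals of Car8, Gng13, Trpm1 and Vsx1 limit what these arrays resolve.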
